A study of Mus musculus with 4 samples.

Results

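The genes described here encode the receptors for type I and type II interferon (Ifnar1, Ifnar2, Ifngr1, Ifngr2), the receptor-bound kinase TYK2 (Tyk2), and the transcription factors STAT2, IRF9, IRF1 and IRF7 (Stat2, Irf9, Irf1, Irf7). They were taken as a fixed list of 9 symbols and matched to the Ensembl identifiers of the deposited expression table, and 9 of the 9 were found among its 12208 genes. RNA was sequenced from mouse 3T3 cells, labelled as a line of osteoblast precursors, after recombinant LTα1β2 or control treatment. The 4 groups were LTα1β2 at 24 h, control at 24 h, LTα1β2 at 48 h and control at 48 h, each of 1 library. The labels give no dose, do not say what the control cells received, name no genotype beyond the cell line, and do not say whether the libraries came from separate cultures. Several fibroblast lines carry the name 3T3, and the labels do not say which of them was grown.

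Type I interferons bind the receptor pair IFNAR1 and IFNAR2, whose kinases TYK2 and JAK1 phosphorylate STAT proteins. STAT2 and IRF9 are subunits of the resulting complex ISGF3, which binds interferon-stimulated response elements (ISRE) in the promoters of antiviral genes. Type II interferon binds IFNGR1 and IFNGR2, and its signal reaches gamma-activated sites (GAS) in target genes such as Irf1. IRF7 is a master factor of type I interferon production and is itself an ISGF3 target. LTα1β2 is a TNF superfamily ligand, and its receptor signals through NF-κB, a family that is also known to act on Irf1.

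Values are CPM as the authors deposited them, that is read counts scaled so that the genes listed sum to 1000000 in each library. Library totals, recovered from the step between CPM values, ran from 11355974 to 15995777 reads, and the 9 genes had between 276 and 3715 reads in a library. Intervals on levels and folds are exact at 95% and cover counting error only, not the spread between cultures. The LTα1β2 library at 48 h stood apart in the annotated transcript length of the genes its reads were counted to. Each gene was given the length of its longest annotated transcript, and the median was weighted by CPM. It was 2847 bases, against 3339 in control at 48 h, 3320 in LTα1β2 at 24 h and 3403 in control at 24 h. For each of the 9 genes the 48 h fold is therefore also given with the transcript-length trend of each library removed.

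Of the osteoblast markers Runx2, Sp7, Col1a1, Col1a2, Dlx5, Postn, Bglap and Bglap2 were in the table, 8 of 10 listed, while Alpl and Ibsp were not among its genes. Their summed level, mostly Col1a1 and Col1a2, was lower in LTα1β2 at both times (23030 CPM in LTα1β2 and 33322 CPM in control at 24 h, 18707 CPM in LTα1β2 and 32685 CPM in control at 48 h), and Sp7, Runx2, Dlx5 and Col1a1 fell in the additive test described next. Of 7 fibroblast markers 5 were listed, at 8536 CPM in LTα1β2 and 10753 CPM in control at 24 h and 6843 CPM in LTα1β2 and 10284 CPM in control at 48 h. Of these Fn1 and Pdgfrb fell in the same test, and Pdgfra, which did not pass, had ratios of 1.32 at 24 h and 1.02 at 48 h. Of 7 leukocyte markers 3 were present, with a summed level of 57.4 CPM in LTα1β2 and 65.1 CPM in control at 24 h, and 85.9 CPM in LTα1β2 and 75.4 CPM in control at 48 h, nearly all of it Lyz2. Ptprc, Adgre1, Itgam and Tyrobp were not listed, nor was any of 3 endothelial or 4 epithelial markers. Of 3 adipocyte markers only Fabp4 was listed, at 2.40 and 1.94 CPM in LTα1β2 and control at 24 h and 6.69 and 1.45 CPM at 48 h, and it rose in that test. Of the plasmacytoid dendritic cell markers, Tcf4, which many other cells express, was listed and Siglech was not. The part of these shifts, and of transcript length, in the results for the 9 genes was not tested. In bulk RNA, fewer cells of a type and less RNA per cell cannot be told apart.

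Irf1 and Ifngr2 stood well above control in LTα1β2 cells at 24 h and at 48 h. Irf7 was near control at 24 h and above it at 48 h, as were the ISGF3 genes Stat2 and Irf9 by smaller margins. The additive log2 folds of Ifnar1, Ifnar2, Ifngr1 and Tyk2 lay between 0.01 and 0.32. In an additive limma model of time and treatment over 12160 genes, 3 of the 9 rose (Irf1, Ifngr2 and Irf7) and 0 fell, at an adjusted p of 0.05. Of all tested genes 2.92% were called higher and 2.27% lower by that test. The 9 genes were chosen with earlier results of these data known, so the comparison with these shares is a description. At an unadjusted p of 0.05 the counts of the 9 were also 3 higher and 0 lower, and the share of all tested genes at that p is not given here. With limma voom 3 rose and 0 fell, against 2.91% of all tested genes higher and 2.13% lower. The model takes 24 h and 48 h as repeats, has 1 residual degree of freedom, and estimated an infinite prior, so that a gene is judged by the spread of genes like it in level and not by its own. When the prior was set to 10 degrees of freedom, 0 of the 9 passed, where 0.321% of all tested genes were called higher and 0.206% lower. With no time term 0 passed as well, where 0.164% were called higher and 0.0905% lower. In fits of 3 libraries, which have no time term, 0 passed without the 24 h control, where 0.189% of all tested genes were called higher, or without the 48 h control, where 0.132% were. Without the treated 24 h library 5 rose (Stat2 and Irf9 added), against 15.5% of all tested genes higher and 25.2% lower in that fit. Without the treated 48 h library 3 rose (Irf1, Ifngr2 and Ifngr1), against 3.31% higher.

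**Figure D1:**
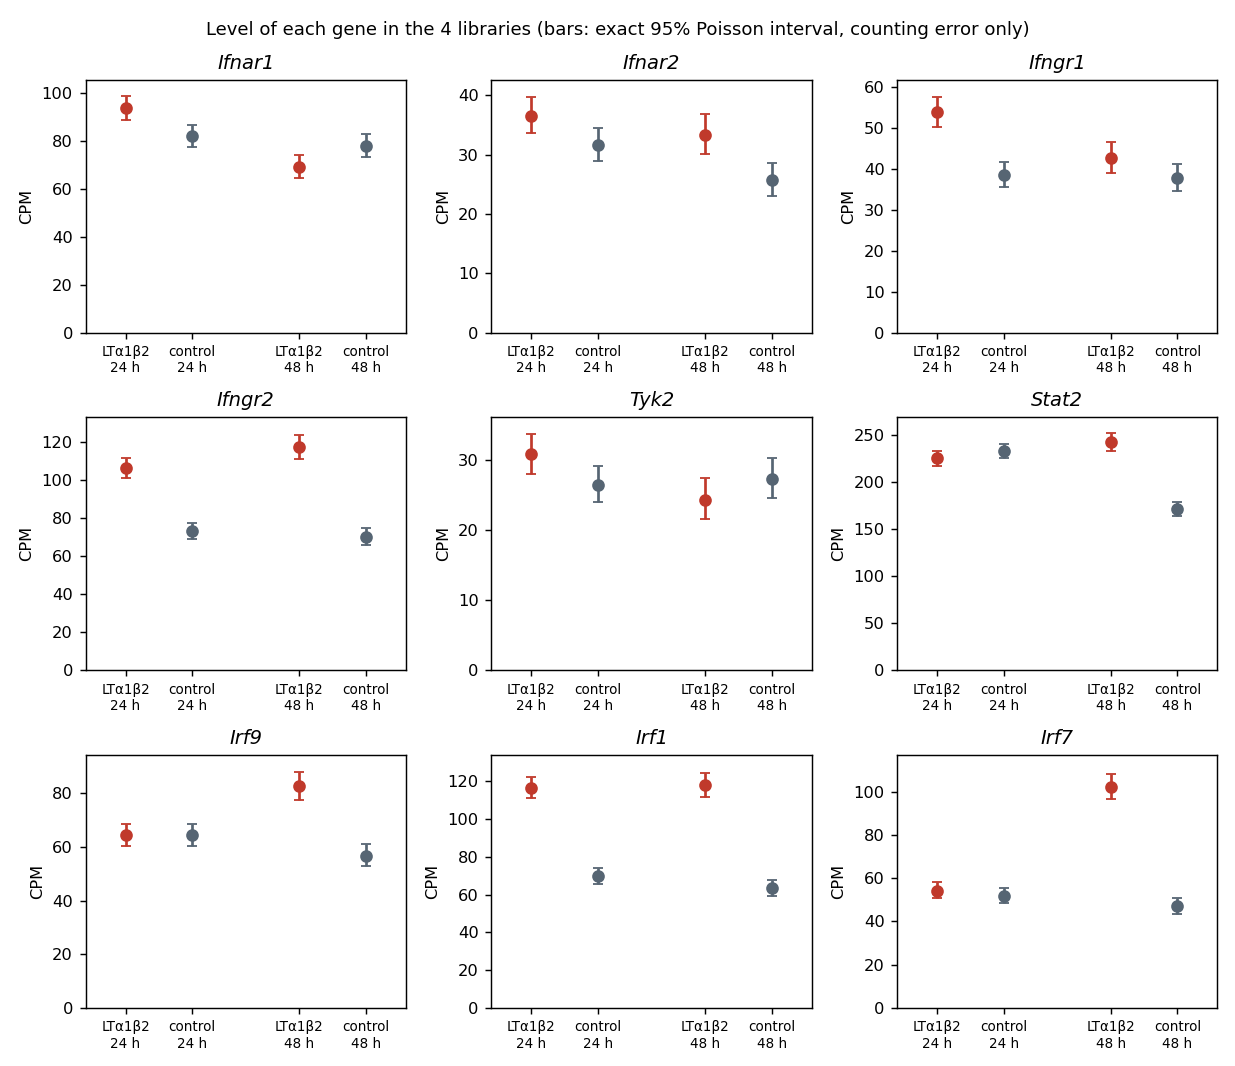
Level of each of the 9 genes in CPM (vertical axes, linear from 0) in the LTα1β2 library (red) and the control library (grey) at 24 h and 48 h, with exact 95% Poisson intervals of counting error. Irf1 and Ifngr2 lie above control at both times, whereas the treated 48 h library stands alone for Irf7 at 102 CPM.

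On the log2(CPM + 1) scale, the median fold of the 9 genes was 0.20 at 24 h and 0.50 at 48 h, where the medians of all tested genes were 0.02 and -0.09. No gene of the 9 was at least 2-fold higher at 24 h, where 0.345% of all tested genes were, and 1 was at 48 h (Irf7), where 1.86% were. At 1.5-fold the counts were 1 of 9 at 24 h (Irf1), against 1.48% of all tested genes, and 3 of 9 at 48 h (Irf1, Irf7 and Ifngr2), against 7.39%. None of the 9 was at least 1.5-fold lower, where 1.35% of all tested genes were at 24 h and 6.28% at 48 h. Folds above 0 at both times were found in 5 of the 9 and in 28.8% of all tested genes. The counting interval of the CPM ratio lay above 1 for 6 of the 9 at 24 h, against 20.3% of all tested genes, and for 6 at 48 h, against 21.6%. It lay below 1 for 0 of the 9 at 24 h, against 14.5% of all tested genes, and for 1 at 48 h (Ifnar1), against 34.2%. Such intervals narrow as reads increase. The tested genes include many with fewer reads than the 276 of the lowest member, so these shares are not matched for read number.

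**Figure D2:**
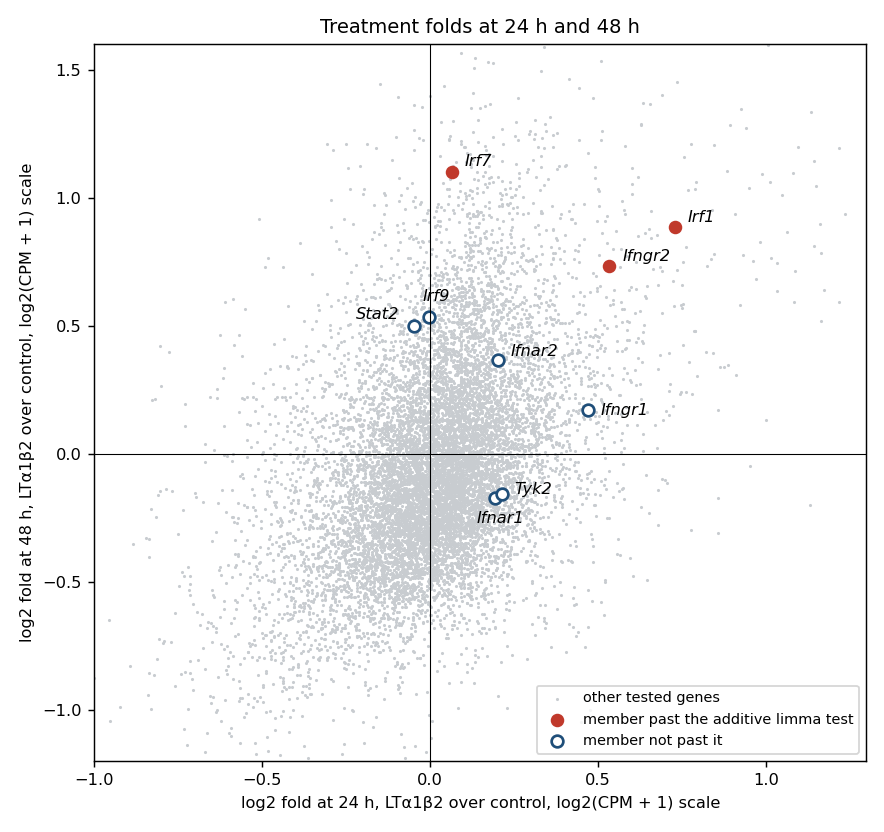
Log2 fold of LTα1β2 over control at 24 h (horizontal axis) and at 48 h (vertical axis) for the 9 genes and for the other tested genes (small grey points), of which 82 lie beyond the axes. Irf1 and Ifngr2 lie to the upper right, and Irf7, Irf9 and Stat2 lie close to the vertical zero line at 24 h and above 0 at 48 h.

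The gene with the highest treatment difference at both times together was Irf1, which encodes the first-described interferon regulatory factor, an activator of antigen presentation and GBP genes. In GRCm38 as annotated by GENCODE M21, Irf1 lies on the plus strand of chromosome 11 (53770014 to 53778374). Its level was 117 CPM in LTα1β2 and 69.8 CPM in control at 24 h, and 118 CPM in LTα1β2 and 63.4 CPM in control at 48 h. Both treated libraries were above both controls, and the counting intervals did not overlap. The ratio of LTα1β2 to control was 1.67 at 24 h (1.55 to 1.80) and 1.86 at 48 h (1.70 to 2.03), and the 2 intervals overlapped. In the additive fit the log2 fold was 0.81 ± 0.17 (SE; limma, adjusted p = 2.00e-04), higher at 2 of 2 times. With the length trend removed the log2 folds were 0.72 at 24 h and 0.87 at 48 h, against 0.73 and 0.88 as deposited.

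The promoter of Irf1 is shown because it holds matches to both a GAS and an NF-κB site. The window is that of RefSeq for GRCm38.p6, chr11:53769764-53770063, plus strand, from 250 bases before to 50 bases after the first annotated start, and capitals mark the matches.
Irf1: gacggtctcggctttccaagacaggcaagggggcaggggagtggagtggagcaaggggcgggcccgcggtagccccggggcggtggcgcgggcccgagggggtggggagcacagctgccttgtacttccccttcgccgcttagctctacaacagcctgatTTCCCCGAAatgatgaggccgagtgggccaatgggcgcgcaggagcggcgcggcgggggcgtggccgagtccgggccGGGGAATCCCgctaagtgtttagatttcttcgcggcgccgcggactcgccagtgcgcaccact
The GAS match (TTCNNNGAA) lay at positions -90 to -82 relative to the start, and the NF-κB consensus match at -13 to -4. The NF-κB match reads as a match on both strands. The window of the second annotated start of Irf1 held neither.

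Ifngr2, the signalling chain of the type II interferon receptor, was the one receptor gene that rose. It lies on the plus strand of chromosome 16 (91547072 to 91565623). Its level was 106 CPM in LTα1β2 and 72.8 CPM in control at 24 h, and 117 CPM in LTα1β2 and 70.2 CPM in control at 48 h. As for Irf1, both treated libraries were above both controls. The ratio was 1.45 at 24 h (1.35 to 1.57) and 1.67 at 48 h (1.53 to 1.82). The additive log2 fold was 0.63 ± 0.17 (SE; limma, adjusted p = 0.00702). With the length trend removed the 48 h log2 fold was 0.87, against 0.73 as deposited. Its promoter is printed as the other window with an NF-κB consensus match, in capitals, on the minus strand at positions -75 to -66 relative to the start (GRCm38.p6, chr16:91546809-91547108, plus strand).
Ifngr2: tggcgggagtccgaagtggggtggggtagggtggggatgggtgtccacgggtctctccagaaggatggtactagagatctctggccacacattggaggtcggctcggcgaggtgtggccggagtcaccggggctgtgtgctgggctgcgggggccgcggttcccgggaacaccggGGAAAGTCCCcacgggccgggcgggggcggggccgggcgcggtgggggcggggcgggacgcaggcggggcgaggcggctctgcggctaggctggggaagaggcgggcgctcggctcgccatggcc

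Ifngr1, the ligand-binding chain of the same receptor (chromosome 10, 19591949 to 19610229, plus strand), had 53.9 CPM in LTα1β2 and 38.6 CPM in control at 24 h, and 42.7 CPM in LTα1β2 and 37.8 CPM in control at 48 h. The treated 24 h library was the highest of the 4, while at 48 h the intervals of the 2 groups overlapped. The ratio was 1.40 at 24 h (1.26 to 1.55) and 1.13 at 48 h (0.995 to 1.28), and the additive log2 fold of 0.32 ± 0.17 (SE) did not pass (limma, adjusted p = 0.348). That value ranged from 0.16 without the treated 24 h library to 0.49 without the treated 48 h library. The 48 h log2 fold was 0.17 as deposited and 0.15 with the length trend removed.

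The chains of the type I interferon receptor lie near each other on the plus strand of chromosome 16, Ifnar2 at 91372783 to 91405589 and Ifnar1 at 91485238 to 91507441. Ifnar2, whose product binds the ligand with high affinity, had 36.6 CPM in LTα1β2 and 31.6 CPM in control at 24 h, and 33.4 CPM in LTα1β2 and 25.7 CPM in control at 48 h. Each treated library was above its own control, by ratios of 1.16 at 24 h (1.02 to 1.31) and 1.30 at 48 h (1.12 to 1.51). The additive log2 fold was 0.29 ± 0.18 (SE; limma, adjusted p = 0.446), with values of 0.14 without the 48 h control and 0.43 without the 24 h control. Its 48 h log2 fold was 0.37 as deposited and 0.45 with the length trend removed. Ifnar1, the chain that carries TYK2, had 93.8 CPM in LTα1β2 and 82.0 CPM in control at 24 h, and 69.2 CPM in LTα1β2 and 78.1 CPM in control at 48 h. It was thus above control at 24 h (ratio 1.14, 1.06 to 1.24) and below it at 48 h (0.886, 0.806 to 0.973). Its 48 h log2 fold was -0.17 as deposited and -0.03 with the length trend removed. The additive log2 fold was 0.01 ± 0.17 (SE; limma, adjusted p = 0.990).

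Tyk2, the kinase bound to IFNAR1 (chromosome 9, 21104068 to 21131243, minus strand), had the lowest level of the 9 genes per length. Its values were 30.8 CPM in LTα1β2 and 26.4 CPM in control at 24 h, and 24.3 CPM in LTα1β2 and 27.3 CPM in control at 48 h. The counting intervals of the groups overlapped at both times. The ratio was 1.17 at 24 h (1.02 to 1.33) and 0.892 at 48 h (0.759 to 1.05), and the 48 h log2 fold of -0.16 became 0.04 with the length trend removed. The additive log2 fold was 0.03 ± 0.18 (SE; limma, adjusted p = 0.968).

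Stat2 and Irf9 encode subunits of ISGF3. Stat2 (chromosome 10, 128270559 to 128292849, plus strand) had 225 CPM in LTα1β2 and 232 CPM in control at 24 h, and 242 CPM in LTα1β2 and 171 CPM in control at 48 h. The 48 h control stood lowest, and the other 3 libraries lay between 225 and 242 CPM. Control cells at 48 h were at 0.736 of their 24 h level (0.698 to 0.776), whereas LTα1β2 cells at 48 h were at 1.08 of theirs (1.02 to 1.13). The ratio of LTα1β2 to control was 0.967 at 24 h (0.923 to 1.01) and 1.42 at 48 h (1.34 to 1.5). Irf9 (chromosome 14, 55603571 to 55610030, plus strand), the DNA-binding subunit, had 64.3 CPM in LTα1β2 and 64.4 CPM in control at 24 h, and 82.7 CPM in LTα1β2 and 56.8 CPM in control at 48 h. Here the treated 48 h library was the highest and its control the lowest. The ratio was 0.999 at 24 h (0.914 to 1.09) and 1.46 at 48 h (1.32 to 1.60). Neither gene passed the additive test, with log2 folds of 0.23 ± 0.17 (SE; limma, adjusted p = 0.583) for Stat2 and 0.27 ± 0.17 (SE; limma, adjusted p = 0.472) for Irf9. Leaving out 1 library at a time, that fold ranged from 0.01 (no 48 h control) to 0.45 (no 24 h control) for Stat2, and from 0.09 (no treated 48 h library) to 0.44 (no treated 24 h library) for Irf9. With the length trend removed their 48 h log2 folds were 0.67 and 0.61, against 0.50 and 0.53 as deposited.

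The Stat2 promoter is printed because it was the only window of the 9 genes with a match to the ISRE core (GAAA, any 2 bases, GAAA), in capitals, on the minus strand at positions -222 to -213 relative to the start (GRCm38.p6, chr10:128270248-128270547, plus strand).
Stat2: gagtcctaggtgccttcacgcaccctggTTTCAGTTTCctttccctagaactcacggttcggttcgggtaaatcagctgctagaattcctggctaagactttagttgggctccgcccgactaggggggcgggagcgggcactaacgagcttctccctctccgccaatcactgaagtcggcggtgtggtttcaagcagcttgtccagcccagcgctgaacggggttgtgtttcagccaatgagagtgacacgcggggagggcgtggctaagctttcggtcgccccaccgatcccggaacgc

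Irf7 had the largest fold of the 9 at 48 h. It lies on the minus strand of chromosome 7 (141262706 to 141266481). Its level was 54.3 CPM in LTα1β2 and 51.9 CPM in control at 24 h, and 102 CPM in LTα1β2 and 47.2 CPM in control at 48 h. A single library, LTα1β2 at 48 h, was high, and the intervals of the 24 h libraries overlapped. The ratio was 1.05 at 24 h (0.949 to 1.15) and 2.17 at 48 h (1.97 to 2.39), and its 48 h log2 fold was 1.10 both as deposited and with the length trend removed. Within LTα1β2 the 48 h level was 1.88 times the 24 h level (1.72 to 2.06), and within control it was 0.909 of it (0.818 to 1.01). The additive log2 fold was 0.58 ± 0.17 (SE; limma, adjusted p = 0.0175). Without the treated 48 h library it was 0.13 (limma, adjusted p = 0.665), and without the treated 24 h library 1.03. Rescaling by the median of ratios left the log2 fold at 0.62, and removal of the length trend at 0.58. With the prior estimated anew, at 9.76 and 13.9 degrees of freedom, these gave adjusted p of 0.192 and 0.0527 (limma). With the prior held infinite they gave 1.68e-04 and 1.04e-06 (limma), so the call turned on the prior. With a prior of 10 degrees of freedom the adjusted p was 0.341 for Irf7, 0.0640 for Irf1 and 0.148 for Ifngr2 (limma).

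Whether the treatment fold differed between the times cannot be tested with 1 library per group. The ratio of the 48 h fold to the 24 h fold was 2.07 for Irf7 (1.81 to 2.38), 1.46 for Stat2 (1.36 to 1.57) and 1.46 for Irf9 (1.28 to 1.66). It was 1.11 for Irf1 (0.993 to 1.25), 1.15 for Ifngr2 (1.02 to 1.28) and 1.13 for Ifnar2 (0.931 to 1.36). For Ifngr1, Ifnar1 and Tyk2 the 48 h fold was the smaller, by factors of 0.810 (0.688 to 0.953), 0.774 (0.687 to 0.872) and 0.765 (0.623 to 0.939). Hence 6 of the 9 had the larger fold at 48 h, against 38.4% of all tested genes. These intervals are normal approximations on the log scale from the reads and cover counting error only.

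Per kilobase of the longest annotated transcript, the mean level over the 4 libraries was 49.4 CPM per kb for Stat2 and 43.0 for Irf1. The next 5 were Irf7 at 28.6, Ifngr2 at 24.7, Irf9 at 22.7, Ifnar1 at 20.7 and Ifngr1 at 20.5 CPM per kb, and down to here the range over libraries of each gene overlapped that of its neighbour. Ifnar2 followed at 10.4 CPM per kb (8.42 to 12.0) and Tyk2 at 5.63 (5.03 to 6.37), each below the lowest library of the gene before it. The transcripts of the 9 genes ran from 2112 bases (Ifngr1) to 4828 bases (Tyk2). Exons of other annotated genes shared 9.46% of the exon bases of Ifnar2 (same strand) and 8.07% of those of Tyk2 (an antisense gene). For Irf1 it was 3.40% and for Irf7 1.19%, both with a gene on the opposite strand, and for Irf9 2.28%. The sources used here do not say whether counting used the strand, so reads in those stretches are of uncertain origin.

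The profile over the 4 libraries most like that of Irf7 was sought among 10359 genes with a mean of at least 5 CPM, by the Euclidean distance of centred log2(CPM + 1). The nearest were Angpt1 (distance 0.042), Immp2l (0.063) and Oas1a (0.069). Oas1a, which encodes an antiviral oligoadenylate synthetase, had 42.8 CPM in LTα1β2 and 38.2 CPM in control at 24 h, and 78.4 CPM in LTα1β2 and 36.4 CPM in control at 48 h. Angpt1, the gene of the vascular ligand angiopoietin 1, had 9.21 and 8.94 CPM in LTα1β2 and control at 24 h, and 18.2 and 8.25 CPM at 48 h. With 4 points per profile this likeness is a description. Irf7 alone of the 9 varied at least 2-fold over the libraries, so no other member was compared in this way.

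Of the 11 promoter windows of the 9 genes, 6 held no match to any of the motifs searched, those of Irf7, Irf9, Ifngr1 and Tyk2 among them. Both strands were searched, and no match overlapped a match to another motif. The NF-κB consensus was matched in 2 of the 11 windows (Irf1 and Ifngr2), against 8.46% of the 32851 windows of all genes. GAS was matched in 3 (Irf1, Ifnar1 and Ifnar2), against 8.30% of all windows, and the ISRE core in 1 (Stat2), against 3.44%. Among the listed ISGF3 target genes, 9 of the 16 with a window held an ISRE core match. A match describes letters in a window and is not evidence of binding.

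**Figure D3:**
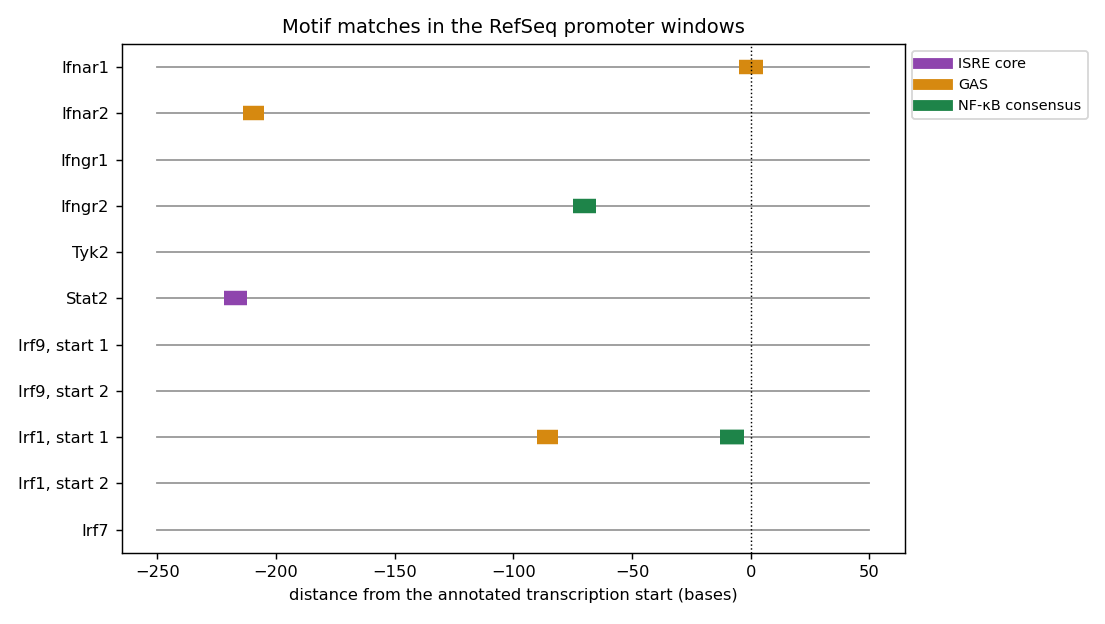
Positions of matches to the ISRE core, GAS and the NF-κB consensus (coloured blocks) in the 11 RefSeq promoter windows of the 9 genes, with distance in bases from the annotated start (dotted line) on the horizontal axis. Irf1 and Ifngr2 carry the NF-κB matches and Stat2 the ISRE match.

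The rest of the pathway was read from 6 lists with 38 genes in the table. Of these 38, 0 passed the additive limma test in either direction, where 2.92% of all tested genes were called higher and 2.27% lower. With limma voom 0 passed as well, against 2.91% higher and 2.13% lower. For 38 genes a count of 0 is near those shares. The count at an unadjusted p of 0.05 was 4 higher (Irf5, Jak2, Traf3 and Usp18) and 0 lower. The share of all tested genes at that unadjusted p is not given here, so this count cannot be judged against it. Once the length trend was taken out, with the prior estimated anew, 2 rose, Jak2 and Traf3. In that fit 3.99% of all tested genes were called higher and 2.94% lower. With the prior held infinite, chosen after seeing the data, 5 rose and 0 fell, where 8.35% were called higher and 5.93% lower. Rescaling gave 0 higher with the prior estimated anew (0.781% of all tested genes) and 4 with it infinite (6.65%). Without the treated 48 h library 7 rose and 0 fell, where 3.31% of all tested genes were called higher and 3.04% lower. Without the treated 24 h library 3 rose and 7 fell, where 15.5% were called higher and 25.2% lower. The median log2 folds at 24 h and 48 h were 0.14 and 0.11 for the other receptors and JAK kinases, 0.09 and -0.10 for the other STAT genes reported, 0.40 and 0.23 for the other IRF genes and 0.15 and -0.19 for the IRF2-binding proteins. They were 0.07 and -0.02 for the negative regulators and 0.05 and -0.07 for the IRF-activating kinases and adaptors.

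Jak2, the kinase bound to IFNGR2, had 108 CPM in LTα1β2 and 73.2 CPM in control at 24 h, and 92.4 CPM in LTα1β2 and 67.8 CPM in control at 48 h (limma log2 fold 0.50 ± 0.17 SE, adjusted p = 0.0577). Jak1, shared by both receptor types, had ratios of 0.967 at 24 h (0.928 to 1.01) and 0.906 at 48 h (0.863 to 0.951), and its 48 h log2 fold of -0.14 became 0.06 with the length trend removed. Usp18, an ISGF3-induced protease that restrains signalling at IFNAR2, had ratios of 0.868 at 24 h (0.779 to 0.968) and 2.04 at 48 h (1.85 to 2.26; additive limma fit, adjusted p = 0.169). Of the other negative regulators, Pias3 had ratios of 0.816 at 24 h (0.735 to 0.905) and 0.818 at 48 h (0.722 to 0.927). Pias1 had ratios of 0.977 (0.881 to 1.08) and 0.721 (0.633 to 0.819), and Socs3 of 1.23 (1.13 to 1.34) and 1.13 (1.01 to 1.26). Traf3, an adaptor upstream of IRF3 and IRF7, had ratios of 1.54 at 24 h (1.42 to 1.67) and 1.21 at 48 h (1.08 to 1.35; additive limma fit, adjusted p = 0.118), and its 48 h log2 fold of 0.27 became 0.57 with the length trend removed. Irf5 had ratios of 1.46 (1.29 to 1.64) and 1.21 (1.05 to 1.39), and Irf3, which activates the interferon β gene, 0.820 (0.729 to 0.922) and 1.18 (1.04 to 1.34). For Irf2 they were 1.33 (1.19 to 1.49) and 0.945 (0.825 to 1.08). Of the 12 interferon genes listed as ligands 0 were in the table, which holds no zeros, so their levels are not analysed here.

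**Figure D4:**
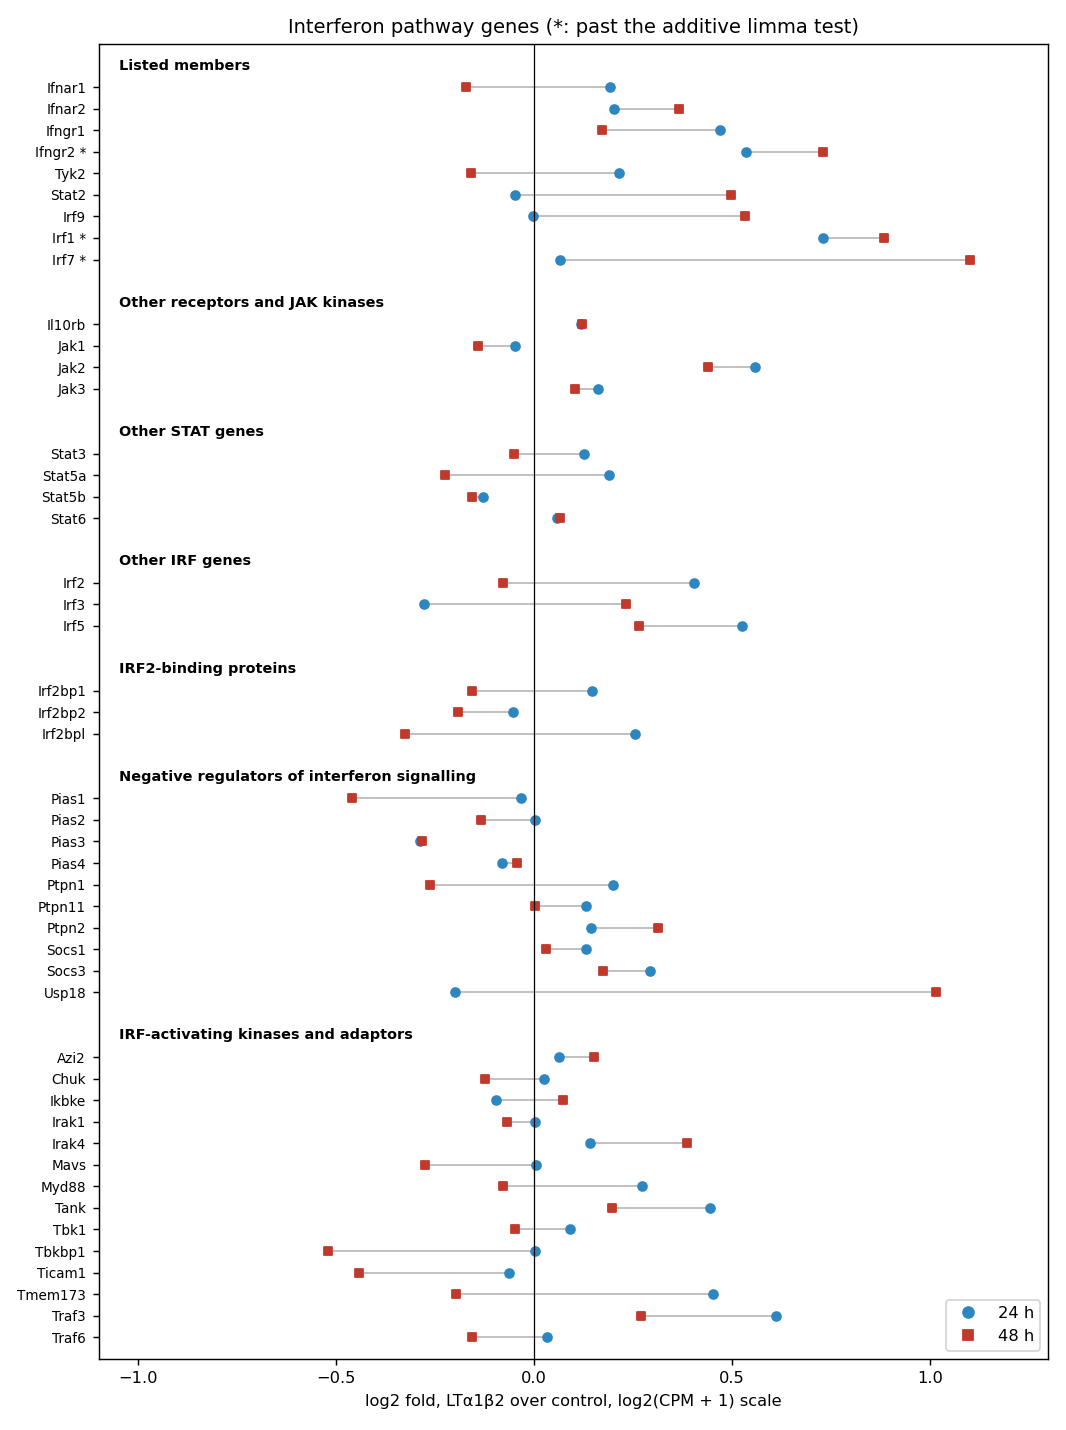
Log2 fold of LTα1β2 over control at 24 h (blue circles) and 48 h (red squares) on the log2(CPM + 1) scale for the 9 genes and for the 38 genes of the other pathway lists, with asterisks for genes past the additive limma test. Asterisks stand beside Ifngr2, Irf1 and Irf7, and Usp18 shows the 48 h excess seen for Irf7, Irf9 and Stat2.

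Genes downstream of the members were read from a list of known ISGF3 targets. Of its 21 genes 13 rose and 0 fell, where 2.92% of all tested genes were called higher. The list was chosen with earlier results of these data known, so the comparison with that share is a description and not a test. The 13 were Bst2, Cmpk2, Ifi44, Ifit1, Ifit3, Isg15, Mx1, Oas1a, Oasl2, Parp14, Rsad2, Rtp4 and Xaf1. The median log2 fold of the 21 was 0.17 at 24 h and 1.08 at 48 h. Ifit3 and Ifit1, which encode interferon-induced antiviral proteins, had the largest additive folds of the list. Ifit3 had ratios of 1.13 at 24 h (1.06 to 1.19) and 4.72 at 48 h (4.46 to 5.0), so that like Irf7 it was high in 1 library. Ifit1 had ratios of 1.12 (1.06 to 1.18) and 4.33 (4.12 to 4.57). Rsad2, the gene of the antiviral enzyme viperin, had ratios of 1.38 (1.07 to 1.78) and 3.50 (2.62 to 4.71). Parp14, which encodes an ADP-ribosyltransferase, was already 1.54 times control at 24 h (1.44 to 1.65) and 2.13 times at 48 h (1.97 to 2.31). Isg15, which encodes a ubiquitin-like protein, had ratios of 0.902 (0.835 to 0.975) and 2.74 (2.56 to 2.94), and its 48 h log2 fold of 1.44 was 1.04 with the length trend removed.

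The count of ISGF3 targets that rose was 21 without the treated 24 h library, where 15.5% of all tested genes were called higher, and 6 without the treated 48 h library, where 3.31% were. Without the 24 h control, or without the 48 h control, hardly any of the targets passed, and hardly any of all tested genes did. With a prior of 10 degrees of freedom the count of targets was 0, where 0.321% of all tested genes were called higher. Rescaling gave 1 with the prior estimated anew, where 0.781% of all tested genes were called higher, and 18 with it infinite, where 6.65% were. Removal of the length trend gave 15 with the prior estimated anew (3.99% of all tested genes) and 18 with it infinite (8.35%).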

How the data were processed

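RNA was sequenced from 4 libraries, 1 per group. The authors deposited a single table of CPM, in which 12208 genes carry Ensembl identifiers with versions. The submitters' processing notes list edgeR 3.30.0. Aligner, counter, genome build and annotation: not given in the sources used here. Per the labels' protocols, libraries came from total RNA with a strand-keeping kit and were read as pairs. The deposited CPM hold no zeros, and their lowest values equal 9 to 12 reads, so genes silent in a library are missing. The step between low values gave whole reads for 100% of values (within 0.01 of a read). These reads served for Clopper-Pearson intervals of ratios, exact Poisson intervals of levels, and voom.

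Symbols, positions and the longest transcript came from GENCODE M21 (GRCm38, 12205 identifiers found), and promoters from RefSeq (GRCm38.p6, 9 of 9 genes matched). Whether the authors used that build is not known. Genes with a mean of at least 1 CPM (12160, the 9 members included) were fitted as log2(CPM + 1), which understates folds of low genes, on time plus treatment. The tool was limma 3.58.1 under R 4.3.3, with a trended prior, a two-sided test and Benjamini-Hochberg adjustment at 0.05. The code was also run on simulated reads with the same fold at both times and no length shift between libraries. Such a run cannot show that the test holds for these data. The residual behind the p-values is the difference between the 24 h and 48 h treatment folds, pooled over genes of like level. It may hold technical spread and real change of the treatment effect with time. The p-values therefore do not measure the spread between cultures. A single time has no replicates and no p-value. Length trends were removed by lowess (span 0.3). Alternatives varied pseudocount, filter, scaling, prior, time term and libraries.

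Named were the 9 members, and 3 genes most like a member that varied at least 2-fold. Other pathway genes were drawn from those that passed the test or were among the 4 of their list with the largest absolute mean fold. Not every such gene is named. Left out were the other STAT genes, the IRF2-binding proteins, Jak3, Tank, Irak4 and Tbkbp1. The 48 h ratios of the last 3 were 1.15 for Tank, 1.33 for Irak4 and 0.627 for Tbkbp1. Members and lists were chosen with earlier results of these data known. A gene of the pathway and a list of targets that depends on it are not reported here.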

Additional observations from a re-analysis of the deposited data

Results flagged for a closer look

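For 4 genes the treated library lay on opposite sides of its control at the 2 times, which with 1 library per group was not tested. The log2 fold at 48 h minus that at 24 h, LTα1β2 over control on the log2(CPM + 1) scale, was 0.55 for Stat2 and 0.54 for Irf9, which were slightly below control at 24 h and above it at 48 h. It was -0.36 for Ifnar1 and -0.37 for Tyk2, which were above control at 24 h and below it at 48 h. With the length trend removed the 48 h log2 folds were -0.03 for Ifnar1 and 0.04 for Tyk2, so Tyk2 no longer changed side. Those of Stat2 and Irf9 were then 0.67 and 0.61. The 24 h folds of Stat2 and Irf9 and the 48 h fold of Tyk2 were within counting error of no difference. No group had the 4 samples that a check for outlying samples needs.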

How the results depend on the processing

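Each member had at least 276 reads in every library, and no group had a second library. Other pseudocounts, filters, no trend and limma voom kept 3 members higher and 0 lower. Members lower numbered 0 in every fit. The count of members higher was 0 with no time term and 0 with prior degrees of freedom of 10, and from 0 to 5 when 1 library was left out (those fits hold no time term). Infinite prior degrees of freedom and length-trend removal, chosen together after seeing the data, gave 6. In that fit 8.35% of all tested genes were called higher and 5.93% lower. Over all genes, against 355 higher and 276 lower, rescaling by median of ratios gave 95 and 83 with prior degrees of freedom of 9.76, and 809 and 459 with infinite ones, chosen after seeing the data. No time term gave 20 and 11, prior degrees of freedom of 10 gave 39 and 25, and length-trend removal at infinite ones gave 1015 and 721. With its own estimate of 13.9, length-trend removal gave 485 and 358. Leaving out a library gave 16 to 1886 higher and 6 to 3063 lower. The cause of these shifts was not tested. Irf7 did not pass after rescaling (log2 fold 0.62, adjusted p = 0.192, limma) or length-trend removal (0.58, adjusted p = 0.0527) with the prior estimated anew, and passed after both with it infinite (adjusted p = 1.68e-04 and 1.04e-06). Irf1 and Ifngr2 passed in 12 of 16 alternatives each. With 1 library left out, the additive log2 fold ranged from -0.21 to 0.23 for Ifnar1, negative without the treated 24 h library or the 48 h control, and from -0.14 to 0.19 for Tyk2, negative without the treated 24 h library. The other members kept their sign, with the ranges of Stat2, Irf9, Ifngr1 and Ifnar2 given beside their folds.

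Against 42 higher and 22 lower genes at 24 h and 226 and 87 at 48 h by the 2-fold rule, a 1.5-fold rule gave 180 and 164 at 24 h and 899 and 764 at 48 h. A pseudocount of 5 gave 19 and 5 at 24 h and 126 and 28 at 48 h, and one of 0.25 gave 44 lower at 24 h and 156 lower at 48 h. Length-trend removal left 145 higher at 48 h, and rescaling gave 312 higher and 61 lower there. Tests on counts with edgeR and DESeq2 were planned and not run, and the recovered reads were tested with limma voom only. No paired analysis was possible because the labels carry no replicate numbers, and libraries were matched by time alone, through the time term.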

Other observations

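The interferon and interleukin receptor genes Ifnar2, Il10rb, Ifnar1 and Ifngr2 follow each other on the plus strand of chromosome 16 in GENCODE M21 (GRCm38). Il10rb (91406164 to 91425834), which encodes a chain of the interleukin 10 and interferon λ receptors, had 19.6 CPM in LTα1β2 and 17.9 CPM in control at 24 h, and 17.8 CPM in LTα1β2 and 16.3 CPM in control at 48 h. Its ratio was 1.09 at both times (0.923 to 1.29 and 0.898 to 1.33). Along the cluster the 48 h ratios were thus 1.30 for Ifnar2, 1.09 for Il10rb, 0.886 for Ifnar1 and 1.67 for Ifngr2, and the counting interval of Ifngr2 did not overlap those of the other 3.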
